A study of Mus musculus with 24 samples.

Results

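The genes described here encode enzymes that turn tryptophan into NAD, together with enzymes of nicotinamide salvage and disposal. They were taken by gene symbol, and all 10 names (Tdo2, Ido2, Afmid, Kmo, Kynu, Haao, Acmsd, Qprt, Nampt and Nnmt) matched 1 row each among 54532 genes of the count table. RNA-seq was performed on whole livers of 24 young adult male mice on a C57BL/6J background after a 24 h fast, with 4 livers in each of 6 genotype groups. In Rab30KO mice exon 4 of Rab30 is deleted in every tissue, and Rab30 Ctrl mice are their wildtype littermates. Rab30L-/-, Cpt2L-/- and DKO mice carry albumin-Cre, which is active in hepatocytes, and floxed alleles of Rab30, of Cpt2 or of both genes. The ff;ff controls carry both pairs of floxed alleles without Cre and are labelled as littermates of the DKO mice, and the labels do not give the litters of the Rab30L-/- and Cpt2L-/- mice. Rab30 is a small GTPase of intracellular trafficking, and Cpt2 is the mitochondrial enzyme needed to oxidise long chain fatty acids.

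In the liver, tryptophan is opened to N-formylkynurenine and passes through kynurenine and 3-hydroxyanthranilate to an unstable intermediate. That intermediate either cyclises to quinolinate, which leads to NAD, or is decarboxylated by Acmsd and leaves the route to NAD. Nampt starts the separate salvage of nicotinamide to NAD, and Nnmt methylates nicotinamide so that it can no longer be salvaged.

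The label of a library could not be checked from the targeted genes, because counts over a whole gene include exons that a deletion leaves in place. Rab30 stood at 102 to 232 CPM, read counts scaled to the size of the library, in the livers labelled DKO and at 26.4 to 45.5 CPM in ff;ff. Its range was 10.2 to 26.5 CPM in Rab30L-/- and 121 to 186 CPM in Cpt2L-/-. In Rab30KO it stood at 5.47 to 17.1 CPM and in Rab30 Ctrl at 6.53 to 29.8 CPM, which overlap. Cpt2 stood at 94.9 to 165 CPM in Cpt2L-/- and at 129 to 142 CPM in ff;ff. In DKO it stood at 97.1 to 125 CPM, below every ff;ff liver and every Rab30L-/- liver (169 to 271 CPM). The genotype of each group, and so every direction given here, is therefore taken from the labels. Library totals ran from 11801027 to 24497738 counts. Mndal, an interferon-inducible gene of the same chromosome as Kmo and Acmsd, was at 0 to 0.14 CPM in ff;ff and at 3.64 to 6.83 CPM in Cpt2L-/-, so these groups also differed in a gene that was not targeted. It was at 4.70 to 7.63 CPM in Rab30L-/- and at 0 to 3.13 CPM in DKO, with every DKO liver below every Rab30L-/- liver (adjusted p = 0.101).

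Haao fell in every comparison of livers lacking Cpt2 with livers that kept it. Its upstream sequence also holds matches to 2 of the motifs searched, so the window before its start site is printed. It is the 250 bases upstream of the RefSeq start (GRCm38.p6), at chr17:83846791-83847040 on the minus strand. Capitals mark the nuclear receptor half-site AGGTCA, here read on the opposite strand as TGACCT, and the glucocorticoid receptor half-site TGTTCT.
Haao: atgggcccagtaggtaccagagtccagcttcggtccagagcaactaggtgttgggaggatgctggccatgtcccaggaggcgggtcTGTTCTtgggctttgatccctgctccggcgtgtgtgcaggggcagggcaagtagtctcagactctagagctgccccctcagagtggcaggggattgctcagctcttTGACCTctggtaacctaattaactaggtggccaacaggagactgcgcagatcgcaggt
AGGTCA, searched on both strands, was in 3 of the 6 members whose windows were searched (Tdo2, Nampt and Haao) and in 14.0% of 32850 windows of the same length. TGTTCT was in 1 of 6 and in 16.1% of all windows. The E-box CACGTG was in 0 of 6 and in 6.02% of windows, and the ATF4 core TGATGNAA in 0 of 6 and in 3.45%. These matches describe letters and do not show binding.

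The main question was how loss of Cpt2 in hepatocytes changes the fasted liver. In Cpt2L-/- against ff;ff, 9 of 10 members fell and 0 rose, where 11.9% of 13270 genes tested fell. A gene was called at an adjusted p under 0.05 and a change of at least 1.2-fold, with edgeR's quasi-likelihood test. In DKO against Rab30L-/-, a comparison that shares no library with the first, 8 of 10 fell, where 15.8% of 13292 genes fell. Called in both were Ido2, Afmid, Kmo, Kynu, Haao, Acmsd and Nnmt, which are 7 of the 9 and 7 of the 8. How many of all genes were called in both was not counted, so this overlap is not read as a trait of the members. In DKO against ff;ff, 8 of 10 members fell, where 8.24% of 13389 genes fell. That comparison is of loss of both genes and reuses libraries of the comparisons above, so it is not a separate test of Cpt2 loss.

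The groups did not overlap in CPM, with Cpt2L-/- lower, for 8 of 10 members, where 13.4% of genes were lower without overlap. The same held for 8 of 10 members in DKO against Rab30L-/-, where 14.7% of genes did so, and for 9 of 10 in DKO against ff;ff, where 9.96% did so. The plot of CPM by group shows each library.

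**Figure D1:**
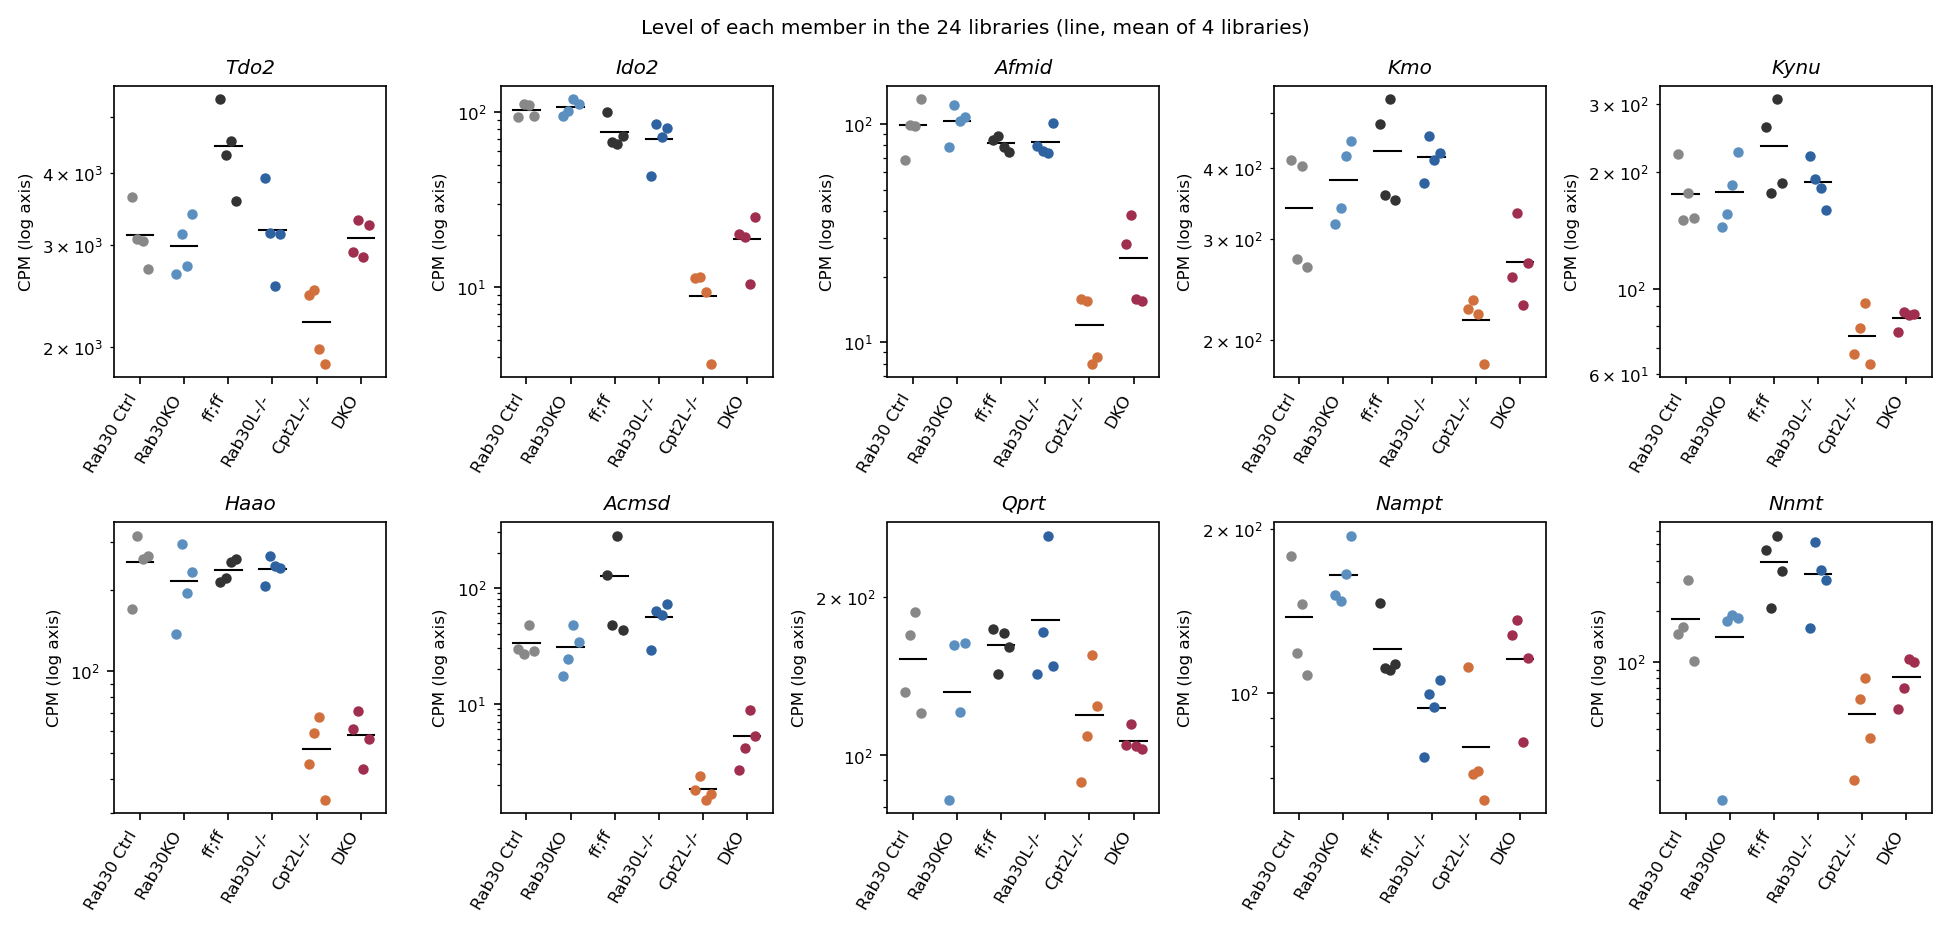
CPM of each member (log axis) in each of the 24 libraries, with a line at the mean of each group of 4. For Acmsd, Ido2, Afmid and Haao every Cpt2L-/- and DKO library lies below every other library, and for Nnmt 1 Rab30KO library lies below their range and 1 Rab30 Ctrl library within it. Qprt and Nampt show much smaller differences.

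Acmsd (chr1:127729413-127767978, plus strand, GRCm38, as all gene positions here) is the decarboxylase that draws carbon away from NAD. It had the largest fold change of the members in the 3 comparisons of livers lacking Cpt2 with livers that kept it. In ff;ff it stood at 127.9, 48.0, 280.3 and 43.2 CPM, and in Cpt2L-/- at 1.8, 2.4, 1.5 and 1.7 CPM, which are 23 to 37 reads a library. The Cpt2L-/- livers were all far below the ff;ff livers, and the ff;ff livers differed among themselves more than any other group did. Acmsd fell by 6.08 on the log2 scale (SE 0.77, adjusted p = 0.00106). Without ff;ff replicate 3 it fell by 5.29 (adjusted p = 4.1e-05). Replicates are numbered here in the order in which the samples of a group are listed.

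In DKO it stood at 2.7, 4.2, 8.9 and 5.3 CPM and in Rab30L-/- at 28.8, 62.6, 58.0 and 72.3 CPM. These groups did not overlap either, and the fall was 3.42 on the log2 scale (SE 0.40, adjusted p = 0.000498). Against ff;ff, Acmsd fell in DKO by 4.57 (SE 0.78, adjusted p = 0.00802), and it fell by 3.79 without ff;ff replicate 3 and by 3.98 with limma-voom. In Rab30 Ctrl the 4 livers held 29.8, 27.0, 48.0 and 28.2 CPM and in Rab30KO 17.3, 24.5, 47.6 and 33.6 CPM, so these wildtype and Rab30KO livers overlapped. An antisense gene, 2900009J06Rik, overlaps Acmsd over 14363 bases and had at most 20 counts in any library.

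Qprt (chr7:127107114-127122226, minus strand) turns quinolinate into nicotinate mononucleotide, on the arm that Acmsd competes with. It stood at 162 ± 13.9 CPM in ff;ff, 119 ± 27.9 in Cpt2L-/-, 181 ± 54.7 in Rab30L-/- and 107 ± 5.47 in DKO (SD, n = 4). It fell by 0.78 on the log2 scale in DKO against Rab30L-/- (adjusted p = 0.00666) and by 0.61 against ff;ff (adjusted p = 0.00649). In Cpt2L-/- against ff;ff its log2 fold change was -0.42 (SE 0.17, adjusted p = 0.0864) and the groups overlapped.

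The ratio of Acmsd to Qprt in FPKM, a level per transcript length, was 0.0188, 0.0203, 0.00885 and 0.0126 in Cpt2L-/-. In DKO it was 0.0238, 0.034, 0.0796 and 0.048. In ff;ff it was 0.688, 0.314, 1.54 and 0.251, and in Rab30L-/- 0.188, 0.34, 0.208 and 0.457. Every library of the 4 groups that kept Cpt2, Rab30 Ctrl and Rab30KO included, was at 0.141 or above. No library of Cpt2L-/- or DKO was above 0.0796.

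**Figure D2:**
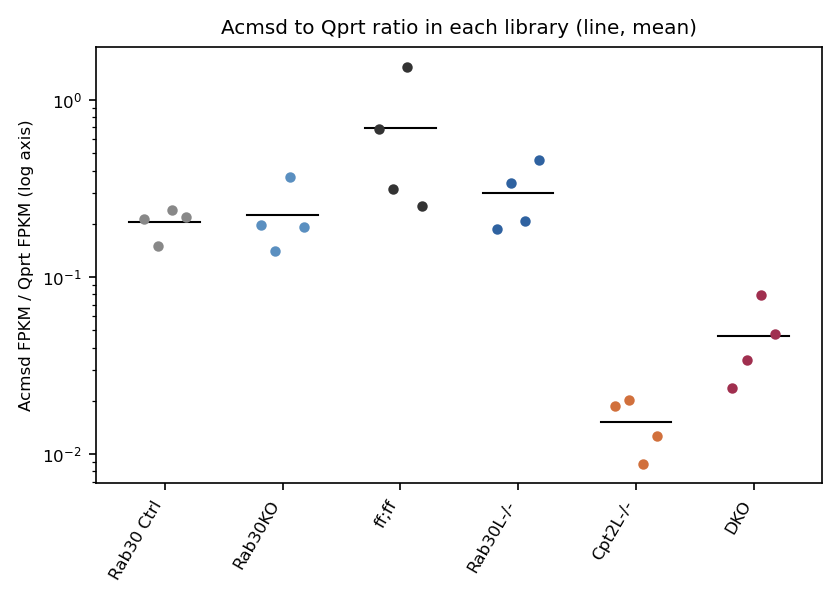
Ratio of Acmsd to Qprt FPKM (log axis) in each library by group, with a line at the group mean. The Cpt2L-/- libraries lie at 0.00885 to 0.0203 and the ff;ff libraries at 0.251 to 1.54.

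Tdo2 (chr3:81957090-81976202, minus strand) and Ido2 (chr8:24531892-24576333, minus strand) both open the indole ring of tryptophan, and Tdo2 is the main liver enzyme. Per transcript length Tdo2 was the highest member in all 6 groups, at 1147 ± 188 FPKM in ff;ff and 578 ± 84.5 FPKM in Cpt2L-/- (SD, n = 4). In CPM the ff;ff livers held 5363, 4299, 4543 and 3579, and the Cpt2L-/- livers 2467, 2517, 1990 and 1874. Tdo2 fell by 0.99 on the log2 scale (SE 0.18, adjusted p = 0.00148). In DKO it held 2925, 3312, 2860 and 3259 CPM, and its log2 fold change was -0.53 against ff;ff (adjusted p = 0.0547, and from 0.00478 to 0.0269 with DESeq2, limma-voom or a fit over all 24 libraries) and -0.07 against Rab30L-/- (adjusted p = 0.779). The DKO livers overlapped the Rab30L-/- livers, at 3922, 3152, 2551 and 3143 CPM, and not the ff;ff livers.

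Ido2 stood at 100.4, 67.5, 65.7 and 73.6 CPM in ff;ff and at 11.4, 11.4, 9.4 and 3.7 CPM in Cpt2L-/-. It fell by 3.08 on the log2 scale (SE 0.31, adjusted p = 3.2e-05). In DKO it held 20.2, 19.4, 10.4 and 25.1 CPM, a fall of 1.94 against Rab30L-/- (SE 0.28, adjusted p = 0.000915). Neither comparison had overlapping groups.

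Afmid (chr11:117825924-117839908, plus strand), the formamidase that releases kynurenine, stood at 84.4, 88.2, 78.1 and 74.6 CPM in ff;ff and at 15.8, 15.5, 8.0 and 8.6 CPM in Cpt2L-/-. It fell by 2.75 on the log2 scale (SE 0.23, adjusted p = 6e-06), and by 1.77 in DKO against Rab30L-/- (SE 0.30, adjusted p = 0.00212). Afmid shares 169 bases with Tk1 on the opposite strand, and counting by strand is not stated, so reads there cannot be assigned. It also shares 13981 bases with Gm20708 on its own strand, which had 0 counts in every library. Tk1, thymidine kinase, fell too, by 2.94 in Cpt2L-/- (adjusted p = 1.34e-05).

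Kmo (chr1:175620381-175662116, plus strand) hydroxylates kynurenine, and Kynu (chr2:43555329-43682715, plus strand) cleaves the product to 3-hydroxyanthranilate. Kmo stood at 429 ± 88.0 CPM in ff;ff and 216 ± 23.7 CPM in Cpt2L-/- (SD, n = 4), a fall of 0.97 on the log2 scale (SE 0.17, adjusted p = 0.00109). Kynu stood at 261.6, 176.7, 309.0 and 188.0 CPM in ff;ff and at 67.8, 78.8, 91.6 and 63.9 CPM in Cpt2L-/-, a fall of 1.62 (SE 0.20, adjusted p = 8.1e-05). In DKO against Rab30L-/- Kmo fell by 0.63 (adjusted p = 0.00716) and Kynu by 1.19 (adjusted p = 8.5e-05). Kmo shares 5255 bases with Fh1, fumarate hydratase, on the opposite strand. Fh1 also fell in Cpt2L-/- against ff;ff, by 1.10 (adjusted p = 0.00136), and its log2 fold change in DKO against Rab30L-/- was -0.41 (adjusted p = 0.0933).

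Haao (chr17:83831356-83846790, minus strand), the dioxygenase that makes the unstable intermediate before the branch, stood at 212.5, 220.3, 251.9 and 258.9 CPM in ff;ff and at 45.6, 59.4, 67.6 and 33.4 CPM in Cpt2L-/-. In Rab30L-/- it held 205.7, 266.9, 243.7 and 240.6 CPM and in DKO 61.4, 71.2, 43.5 and 56.4 CPM. The Cpt2L-/- and DKO livers were all below the ff;ff and Rab30L-/- livers. Haao fell by 2.18 in Cpt2L-/- against ff;ff (SE 0.20, adjusted p = 1.1e-05) and fell by 2.06 in DKO against Rab30L-/- (SE 0.16, adjusted p = 1.8e-05).

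Nnmt (chr9:48591877-48605153, minus strand) stood at 460.1, 208.9, 562.5 and 346.6 CPM in ff;ff and at 19.9, 60.5, 80.5 and 35.3 CPM in Cpt2L-/-. It fell by 3.0 on the log2 scale (SE 0.47, adjusted p = 0.00182). In DKO it held 52.7, 70.0, 104.1 and 100.2 CPM and in Rab30L-/- 160.2, 513.9, 349.8 and 305.1 CPM, a fall of 2.05 (SE 0.35, adjusted p = 0.00251). Nampt (chr12:32819545-32853349, plus strand), the first enzyme of nicotinamide salvage, stood at 120 ± 17.4 CPM in ff;ff and 79.6 ± 21.7 CPM in Cpt2L-/-, a fall of 0.58 (SE 0.19, adjusted p = 0.0385) with overlapping groups, and at 116 ± 24.1 CPM in DKO. The call in Cpt2L-/- was lost on leaving out any 1 of 6 of the 8 libraries (adjusted p from 0.0584 to 0.121). In DKO against Rab30L-/- its log2 fold change was 0.28 (adjusted p = 0.238). Gdap10, a long non-coding RNA gene on the same strand, shares 5033 bases with Nampt and had at most 84 counts in any library.

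**Figure D3:**
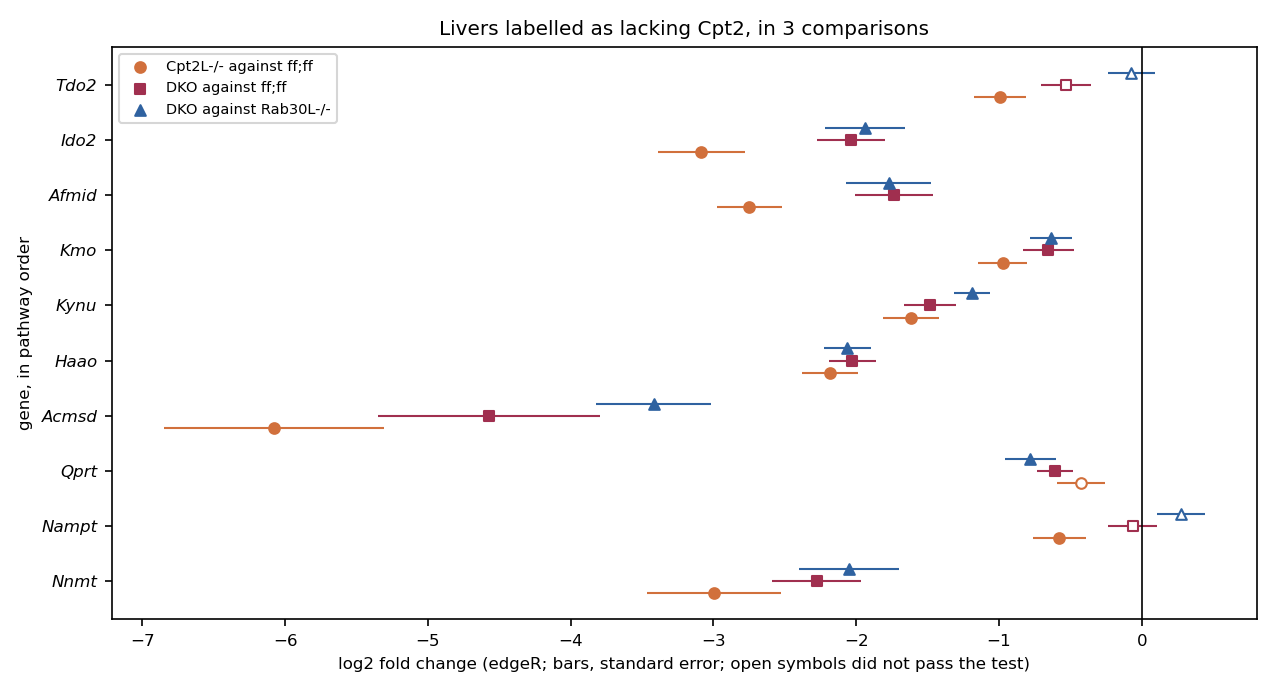
Log2 fold change of each member (horizontal axis, with bars for the standard error) in Cpt2L-/- against ff;ff, DKO against ff;ff and DKO against Rab30L-/-. Filled symbols passed the test. Acmsd lies furthest to the left in all 3 comparisons, at -6.08, -4.57 and -3.42.

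Per transcript length the order of the members changed with Cpt2 loss. In ff;ff Tdo2 was followed by Nnmt at 251 ± 97.2, Haao at 193 ± 19.1 and Kmo at 91.0 ± 18.9 FPKM, and Acmsd, at 44.3 ± 39.5 FPKM, overlapped Kmo, Qprt, Kynu, Nampt, Afmid and Ido2. In Cpt2L-/- Kmo, Qprt, Haao and Nnmt lay at 31.5 to 46.4 FPKM on average and overlapped one another, and Acmsd was lowest at 0.652 ± 0.134 FPKM (SD, n = 4). Ido2, the next lowest, was at 2.50 ± 1.02 FPKM and did not overlap Acmsd.

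**Figure D4:**
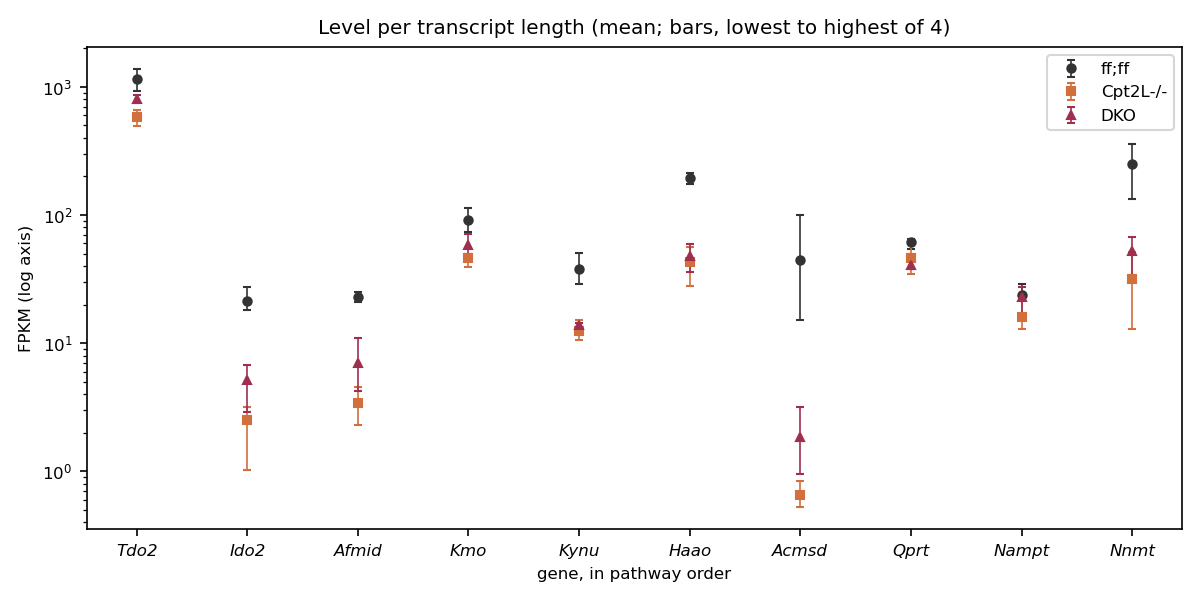
FPKM of the members in pathway order (log axis) in ff;ff, Cpt2L-/- and DKO, as means with bars from the lowest to the highest of 4 livers. Acmsd drops from 44.3 FPKM in ff;ff to 0.652 FPKM in Cpt2L-/-, while Tdo2 stays the highest in each group.

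Markers of some liver cell types moved with these results, and their part in them was not tested. The summed CPM of 5 hepatocyte markers (Alb, Apoa1, Ttr, Cps1 and Hnf4a) was 88400 to 118000 in ff;ff, 42300 to 50800 in Cpt2L-/-, 71300 to 87700 in Rab30L-/- and 58400 to 69000 in DKO. Of the 5, Alb (by 1.41) and Ttr (by 0.86) fell in Cpt2L-/- against ff;ff, and Apoa1, Cps1 and Hnf4a were not called. Alb made up most of the sum, with a mean of 84460 CPM in ff;ff and 31480 CPM in Cpt2L-/-. Of 5 Kupffer cell markers 3 fell in Cpt2L-/- against ff;ff and 4 fell in DKO against Rab30L-/-, where 11.9% and 15.8% of all genes fell. Their sum was 128 to 240 CPM in ff;ff, 105 to 154 CPM in Cpt2L-/-, 177 to 472 CPM in Rab30L-/- and 108 to 127 CPM in DKO. Between the control groups, 3 of the 5 were also lower in ff;ff than in Rab30 Ctrl, where 100 of 13587 genes were. In Cpt2L-/- against ff;ff 0 of 5 stellate cell, 1 of 5 sinusoidal endothelium (Clec4g) and 1 of 4 tested bile duct markers (Sox9) fell, and 0 rose. In whole liver, fewer cells of a type and less RNA per cell cannot be told apart.

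Rab30 loss with Cpt2 intact gave no called member. In Rab30KO against Rab30 Ctrl 0 of 10 members passed the test, where 0.022% of 13656 genes did. At an unadjusted p under 0.05, 302 genes and 0 members passed, and DESeq2 and limma-voom also called 0 members here and in Rab30L-/- against ff;ff. Over all genes DESeq2 called 10 here and 298 there, and limma-voom called 1 and 239. In Rab30L-/- against ff;ff 0 of 10 passed, where 0.479% of 13367 genes did, and 2 members were among the 1497 genes under 0.05 before adjustment, Tdo2 (log2 fold change -0.46, adjusted p = 0.417) and Nampt (-0.33, adjusted p = 0.442). Nampt stood at 76.3, 99.7, 94.3 and 105.6 CPM in Rab30L-/- and at 146.4, 111.1, 110.6 and 113.3 CPM in ff;ff, and these groups did not overlap. In ff;ff against Rab30 Ctrl, the controls of the 2 designs, 0 of 10 passed, where 0.949% of 13587 genes did, and 4 members were among 1800 genes under 0.05 before adjustment (Tdo2, Ido2, Acmsd and Nnmt). Acmsd there had a log2 fold change of 1.89 (SE 0.59, adjusted p = 0.201) and Nnmt of 1.12 (SE 0.36, adjusted p = 0.193).

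On the Cpt2-deleted background, Rab30 loss was compared as DKO against Cpt2L-/-. Here 1 of 10 members passed, Acmsd, where 1.38% of 13306 genes rose. Acmsd rose by 1.51 on the log2 scale (SE 0.34, adjusted p = 0.0417), and the DKO libraries lay above all Cpt2L-/- libraries. The call was lost on leaving out any 1 of 7 of the 8 libraries (adjusted p from 0.0569 to 0.139). Ido2 (1.05, adjusted p = 0.13), Afmid (1.02, adjusted p = 0.144) and Tdo2 (0.47, adjusted p = 0.0933) had positive log2 fold changes that did not pass with edgeR. So did Nnmt (0.72), Nampt (0.52), Kmo (0.32), Haao (0.16) and Kynu (0.14), while Qprt was negative (-0.18). At an unadjusted p under 0.05, 6 members and 2884 genes passed. DESeq2 and limma-voom each called Ido2, Afmid and Tdo2 (adjusted p from 0.0131 to 0.0324), and limma-voom also called Nampt (adjusted p = 0.0302).

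The difference between the effects of Rab30 loss with and without Cpt2, an interaction over 16 libraries, passed for 1 of 10 members, where 2.2% of 14063 genes passed in the positive direction. That member was Tdo2, at 0.92 on the log2 scale (SE 0.24, adjusted p = 0.0349), which lost its call on leaving out any 1 of 10 of the 16 libraries (adjusted p from 0.0528 to 0.0825). Acmsd had an interaction of 2.66 (SE 0.83, adjusted p = 0.0899) and Nampt of 0.86 (SE 0.26, adjusted p = 0.069), and neither passed. The value for Acmsd was 1.88 without ff;ff replicate 3 (adjusted p = 0.1), 1.15 with limma-voom (adjusted p = 0.396), 2.95 without ff;ff replicate 4 (adjusted p = 0.0459) and 2.67 with DESeq2 (adjusted p = 0.0163).

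Other enzymes of tryptophan use were counted from lists. Of 11 other tryptophan and kynurenine enzymes 8 had enough counts, of which 6 fell and 1 rose in Cpt2L-/- against ff;ff, where 11.9% of all genes fell and 11.9% rose. In DKO against Rab30L-/- 4 fell, where 15.8% of all genes fell, and 0 rose. The median log2 fold change of the 8 was -0.59 in the first comparison, against -0.0035 for all genes tested. Kyat1, which transaminates kynurenine to kynurenate, fell by 2.28 (adjusted p = 6.6e-06) and by 1.79 (adjusted p = 0.000827). Aldh8a1, an aldehyde dehydrogenase of the branch that Acmsd opens, fell by 0.39 in Cpt2L-/- (adjusted p = 0.0388) and by 0.76 in DKO against Rab30L-/- (adjusted p = 0.00116). Dhtkd1, which acts further along that branch, fell by 1.06 in Cpt2L-/- (adjusted p = 0.00704). Aadat, a further kynurenine transaminase, fell by 0.79 in Cpt2L-/- (adjusted p = 0.00867).

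Of 12 other genes of NAD synthesis and salvage 10 were tested, and 1 rose and 2 fell in Cpt2L-/- against ff;ff, which is near the 11.9% each way over all genes. Nt5e, an ectoenzyme that degrades nucleotides, rose by 1.62 (adjusted p = 0.000141) and in DKO against Rab30L-/- by 1.85 (adjusted p = 0.00104). Nmrk1, nicotinamide riboside kinase, fell by 1.31 in Cpt2L-/- (adjusted p = 0.00884) and rose by 1.21 in DKO against Cpt2L-/- (adjusted p = 0.0315). Slc25a51, the mitochondrial NAD carrier, fell by 1.03 in Cpt2L-/- against ff;ff (adjusted p = 0.00152), and its log2 fold change in DKO against Rab30L-/- was -0.49 (adjusted p = 0.0533). It was also higher in ff;ff than in Rab30 Ctrl, at 244.5 ± 63.6 and 110.3 ± 12.1 CPM (SD, n = 4, log2 fold change 1.13, adjusted p = 0.0206 by edgeR). Naprt, which starts NAD synthesis from nicotinic acid, fell by 0.63 in DKO against Rab30L-/- (adjusted p = 0.00199). Aox3, an aldehyde oxidase of methylnicotinamide disposal, fell by 2.16 in Cpt2L-/- (adjusted p = 0.00492) and by 1.93 in DKO against Rab30L-/- (adjusted p = 0.0126), while Aox1 rose by 0.61 in Cpt2L-/- (adjusted p = 0.0251).

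Of 12 NAD consumers 10 were tested in Cpt2L-/- against ff;ff, and 2 rose and 2 fell, where 11.9% of all genes went each way. Sirt5, the mitochondrial deacylase, rose by 0.86 (adjusted p = 0.00324), while Cd38 fell by 0.46 (adjusted p = 0.023) and Sirt7 by 0.41 (adjusted p = 0.0302). In DKO against Rab30L-/- Sirt7 fell by 1.02 (adjusted p = 0.000132) and Sirt1, the nuclear deacetylase, rose by 0.47 (adjusted p = 0.011). Of 6 tryptophan transporters 5 were tested in Cpt2L-/- against ff;ff, and 1 rose and 1 fell, where 11.9% of all genes went each way. There Slc3a2, the heavy chain of the large neutral amino acid transporters, rose by 1.52 (adjusted p = 0.000534) and Slc16a10, an aromatic amino acid transporter, fell by 0.95 (adjusted p = 0.00246). In DKO against Rab30L-/- 1 of the 5 rose and 0 fell.

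The genes most like each member called in at least 2 comparisons were ranked by Pearson correlation of log2 CPM over 24 libraries, among 12639 protein-coding genes. These correlations include the group differences and all libraries share the study's handling, so they are given as a description. Haao was most like Gnmt, glycine N-methyltransferase (r = 0.987). Ido2 was most like Otc, ornithine transcarbamylase of the urea cycle (r = 0.972), Afmid most like Serpind1 (r = 0.981), and Acmsd most like Cyp4f15 (r = 0.946) and the urea cycle enzyme Asl (r = 0.946). Kynu was most like Acmsd (r = 0.937) and Kmo most like Sephs2 (r = 0.917). Qprt was most like Ndufa7, a subunit of respiratory complex I (r = 0.89), Tdo2 most like Ahcyl1 (r = 0.888), and Nnmt most like Grm8 (r = 0.846). Among the members, Ido2 and Afmid were the closest pair (r = 0.952).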

How the data were processed

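Whole livers of 24 fasted male mice in 6 genotype groups were sequenced by the study's company. The authors deposited raw counts per gene, as whole numbers without normalization, and FPKM values, in which a count is divided by the length of its gene and the depth of its library. HISAT2, DESeq2 and the build GRCm38 (mm10) are named in the submitters' processing notes. The counter, annotation and use of strand are not given in the sources used here. Tables of the authors' own fold changes and p-values, and a table of normalized counts, were not used.

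Genes were kept by filterByExpr, with TMM scaling, and edgeR 4.0.16 (R 4.3.3) tested each pair of groups on their 8 libraries by its robust quasi-likelihood test. The interaction was fitted on 16 libraries. The Benjamini-Hochberg adjustment ran over every gene in the fit. CPM values use TMM over all 24 libraries. For each comparison edgeR with either set of size factors, DESeq2 and limma-voom were also run on simulated counts. The other filters, the fit over all 24 libraries and the fits leaving out a library were not. Alternatives were DESeq2 1.42.0, limma 3.58.1 with voom quality weights, other size factors, filters and scopes, and leaving out each library. Named beside the members are list genes called in at least 1 comparison, at most 4 a list by size of change. Of the 36 pairs of libraries within groups all differed by more than sampling noise (chi-square per degree of freedom from 13.4 to 109). The labels do not say that livers of a group are from separate litters or days, and p-values measure the spread between these livers. Gene coordinates matched GENCODE M21 for 98.1% of genes. The members, lists and rules were chosen with earlier results of these data known. Upstream windows were searched for 6 members, and those of the other 4 were not used here.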

Additional observations from a re-analysis of the deposited data

Results flagged for a closer look

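The members were checked for a library far from the other 3 of its group, by Dixon's ratio of the gap to the range, and 4 of 60 groups passed its critical value for 4 samples, where chance gives about 3. Nnmt in Rab30KO had 1 library at 15.1 CPM beside 174 to 191 CPM in the others (ratio 0.903). The highest ff;ff library for Nampt stood at 146.4 CPM beside 110.6 to 113.3 CPM (ratio 0.925). The highest Rab30 Ctrl library for Acmsd stood at 48.0 CPM beside 27.0 to 29.8 CPM (ratio 0.863), and the highest DKO library for Qprt at 114.7 CPM beside 102.7 to 104.6 CPM (ratio 0.838).

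The effect of Rab30 loss on Tdo2 differed between livers with and without Cpt2 in the fit over all 16 libraries, with an interaction of 0.92 on the log2 scale (SE 0.24, adjusted p = 0.0349, edgeR). The call was lost on leaving out any 1 of 10 of these libraries (adjusted p from 0.0528 to 0.0825). Tdo2 had a log2 fold change of -0.46 in Rab30L-/- against ff;ff and of 0.47 in DKO against Cpt2L-/-, and neither passed alone with edgeR. The change in DKO against Cpt2L-/- passed with DESeq2 (adjusted p = 0.0131) and limma-voom (adjusted p = 0.0324).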

How the results depend on the processing

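Leaving out each library in turn gave 8 to 9 called members in Cpt2L-/- against ff;ff, 7 to 9 in DKO against ff;ff, 8 in DKO against Rab30L-/-, 0 to 1 in DKO against Cpt2L-/- and 0 to 2 for the interaction. In DKO against Cpt2L-/-, where 1 member was called, DESeq2 called 4 (Acmsd, Tdo2, Ido2 and Afmid), limma-voom called 4 (Tdo2, Ido2, Afmid and Nampt, with Acmsd lost at an adjusted p of 0.0651) and the fit over all 24 libraries called 0. The calls over all genes moved too, from 360 in the main fit to 1032, 1535 and 114. In ff;ff against Rab30 Ctrl DESeq2 called 1 member, Nnmt, where edgeR called 0. Over all genes DESeq2 called 565 there and edgeR 129. For the interaction DESeq2 called 3 members (Tdo2, Acmsd and Nampt), limma-voom called 3 (Tdo2, Afmid and Nampt) and the fit without a filter on low counts called 2 (Tdo2 and Nampt), where 1 was called. Among all genes these fits called 1080, 1294 and 477, where the main fit called 571. In DKO against ff;ff DESeq2, limma-voom and the fit over all 24 libraries each called 9 members, with Tdo2 added to the 8. They called 2740, 3742 and 2632 of all genes, where the main fit called 2157. The cause of these shifts was not tested. In Cpt2L-/- against ff;ff the call of Nampt was lost without any 1 of 6 libraries (adjusted p from 0.0584 to 0.121), and in DKO against ff;ff that of Kmo without any 1 of 4 (adjusted p from 0.0577 to 0.0791). Limma-voom gave a log2 fold change of -5.01 for Acmsd in Cpt2L-/- against ff;ff. No fold change of a called member changed sign under the alternatives run. No paired analysis was possible because the labels give replicate numbers in 1 group only. The replicate numbers used here follow the order of the samples and pair no livers across groups. Acmsd rests on 23 to 37 reads a library in Cpt2L-/-, which limits the precision of its fold change.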
